A study of Mus musculus with 4 samples.

Results

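The genes described here are 7 genes for ion pumping and water movement in the early embryo: the sodium pump subunits Atp1b1 and Atp1b3, the proton-potassium pump subunit Atp12a, the water channels Aqp3, Aqp8 and Aqp9, and the sodium-proton exchanger Slc9a3. They were chosen by symbol, and all 7 were found among the 24411 genes listed for each library. The libraries came from ICR mouse morulae made by in vitro fertilization. They fall into 2 groups of 2: siPwp1, electroporated with siRNA against Pwp1 at the 1-cell stage, 3 hpi, and siControl, electroporated with control siRNA at the same time. Both groups were grown in KSOM with bovine serum albumin until 72 hpi, and each library pooled 10 morulae. The labels do not say whether replicates were separate cultures, and the p-values below reflect the variation among these 4 libraries, which may be technical.

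A mouse morula turns into a blastocyst by filling a cavity with fluid, which is called cavitation. The outer cells, the future trophectoderm, carry the sodium pump (Na,K-ATPase) on their inner, basolateral face. It moves sodium into the spaces between cells, and water follows through aquaporins. The pump needs a catalytic alpha subunit and a beta subunit that brings it to the membrane. Sodium entry at the outer face, in part through exchangers of the Slc9 family, supplies the pump.

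The RSEM expected counts summed to 48765229 and 30356988 in siPwp1 replicates 1 and 2, and to 28981358 and 44985949 in siControl replicates 1 and 2. Levels are given below as CPM (read counts relative to library size, scaled by TMM) for differences between libraries, and as TPM, which corrects for length, for differences between genes. Pwp1, the target of the siRNA, was at 36.9 and 37.2 CPM in siPwp1, against 215.4 and 364.9 CPM in siControl (log2 fold change -2.97, SE 0.333, edgeR adjusted p = 0.22). The stage markers Nanog and Pou5f1 were present in every library, at 197.9 to 422.4 CPM and at 54.5 to 79.2 CPM. The 14 listed trophectoderm genes summed to 861.6 and 611.9 CPM in siPwp1, against 1209 and 658.5 CPM in siControl, with 0 to 2 of them at 0 in a library. The 9 listed inner cell genes summed to 671.1 and 718.9 CPM in siPwp1, against 1034 and 820.3 CPM in siControl. Of 12 cumulus cell markers, 6 to 8 were at 0 in each library, and the list summed to 12.5 and 19.7 CPM in siPwp1 and to 7.77 and 11.6 CPM in siControl, most of it Amhr2. The 9 blood markers summed to 107.6 and 109.7 CPM in siPwp1, against 58.5 and 90.3 CPM in siControl, most of it Cd74 and Hba-a2, while Hbb-bs and Hbb-bt were at 0 throughout. The 5 sperm markers summed to at most 1.21 CPM in any library. Whether other cells took part in any difference below was not tested.

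Of the 7 genes, 4 were clearly expressed, Atp12a was low, and Aqp8 and Slc9a3 were at or near 0. In siPwp1 the order of mean TPM was Atp1b3 (141.01 ± 34.6), Aqp9 (50.4 ± 31.4), Aqp3 (36.1 ± 0.332), Atp1b1 (15.05 ± 1.95), Atp12a (0.285 ± 0.00707), Aqp8 (0.03) and Slc9a3 (0). In siControl it was Atp1b3 (129.3 ± 46.4), Aqp3 (64.02 ± 5.63), Aqp9 (58.3 ± 29.2), Atp1b1 (17.3 ± 12.7) and Atp12a (0.975 ± 0.969), all as mean ± SD with n = 2, with Aqp8 and Slc9a3 at 0. Aqp3 and Aqp9 overlapped in both groups and have no settled order. The steps above and below this pair held in each of the 4 libraries: Atp1b3 was always highest, and Atp1b1 always lay below both water channels and above Atp12a.

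**Figure D1:**
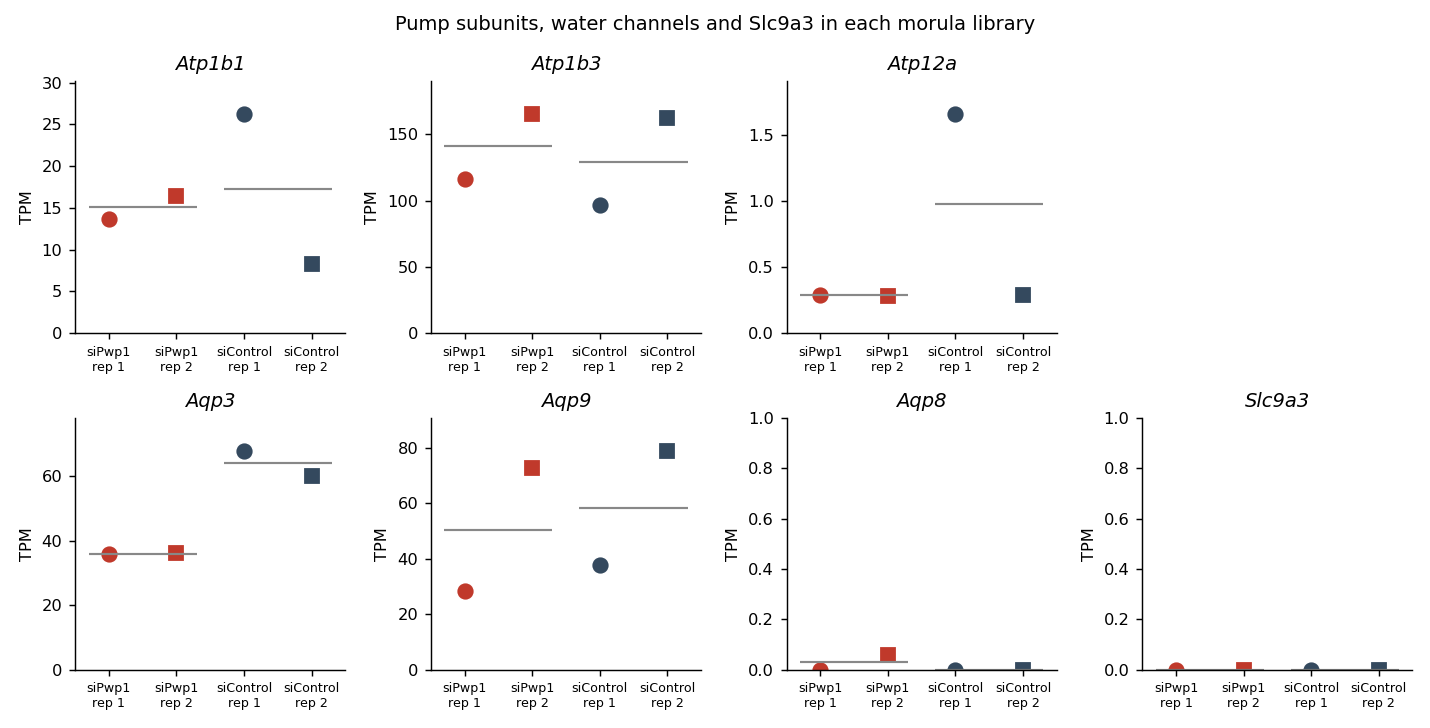
TPM (vertical axis, from 0) of the 7 genes in each library; red, siPwp1; dark blue, siControl; circles, replicate 1; squares, replicate 2; grey lines, group means. The siPwp1 values of Aqp3, at 35.8 and 36.3 TPM, lie below the siControl values of 68 and 60.04 TPM, while in the other panels the groups overlap or lie at or near 0.

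Among the water channels, Aqp3 was the one gene of the 7 whose groups did not overlap. Aqp3 encodes an aquaglyceroporin, a channel that passes glycerol as well as water. It was at 53.1 and 51.7 CPM in siPwp1 replicates 1 and 2, against 103.9 and 84.9 CPM in siControl replicates 1 and 2. Both siPwp1 libraries lay below both siControl libraries, and the replicates of each group were close together. The mean was 52.4 ± 0.982 CPM in siPwp1 and 94.4 ± 13.4 CPM in siControl (SD, n = 2 each), so that the siControl level was 1.80-fold the siPwp1 level. The log2 fold change was -0.85 (SE 0.262, 95% interval -1.47 to -0.23), with edgeR's unadjusted p = 0.0146 and its adjusted p = 0.9998 across the genes tested. The difference thus did not pass the threshold of 0.05. Its log2 fold change lay between -0.99 and -0.70 when any 1 library was left out.

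Aqp9 encodes a second aquaglyceroporin. It was at 66.4 and 164.8 CPM in siPwp1 replicates 1 and 2, against 91.4 and 177.4 CPM in siControl replicates 1 and 2. In each group replicate 2 was high and replicate 1 low, and the groups overlapped. The replicate 2 level was 2.48-fold the replicate 1 level in siPwp1 and 1.94-fold in siControl. The log2 fold change between groups was -0.22 (SE 0.493, 95% interval -1.39 to 0.95, edgeR adjusted p = 0.9998). It was 0.29 or 0.33 when siPwp1 replicate 1 or siControl replicate 2 was left out, and -1.01 or -0.62 when siPwp1 replicate 2 or siControl replicate 1 was.

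Aqp8, a water channel reported from the basolateral side of the mouse trophectoderm, had 2 reads in siPwp1 replicate 2 and 0 in the other 3 libraries. The floor set by 3 counts was between 0.0594 and 0.104 CPM in these libraries and covers counting error only, and Aqp8 lay under it in all 4. Aqp8 did not pass the filter on low counts and no fold change is given.

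The make-up of the aquaporin family differed between libraries. Aqp3 held 46.0% and 21.9% of the summed aquaporin TPM in siPwp1 replicates 1 and 2, against 60.5% and 37.4% in siControl replicates 1 and 2. Aqp9 held 36.2% and 43.8% in siPwp1, against 33.5% and 49.2% in siControl. The next most abundant member was Aqp11, a channel of intracellular membranes that is not among the 7 genes, with 17.3% and 34.0% in siPwp1 and 5.70% and 13.4% in siControl. The ratio of Aqp9 to Aqp3 in TPM was 0.787 and 2.001 in siPwp1 replicates 1 and 2, against 0.554 and 1.31 in siControl replicates 1 and 2. Within each replicate number the ratio was higher in siPwp1, but across replicate numbers the groups overlapped. Of the 12 aquaporin genes in the annotation used, 7 had a read in any library.

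**Figure D2:**
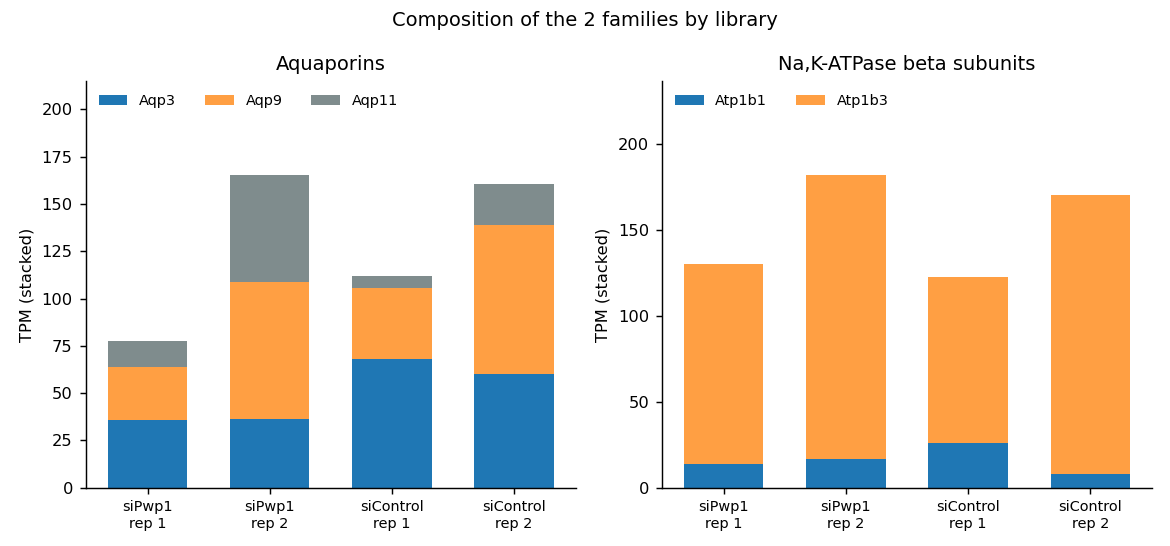
Stacked TPM (vertical axis, from 0) of the most abundant aquaporins (left) and of the sodium pump beta subunits Atp1b1 and Atp1b3 (right) in each library. The Aqp3 segment is smaller in both siPwp1 libraries, the Aqp9 segment is larger in replicate 2 of each group, and Atp1b3 makes up most of the beta subunit TPM in every library.

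The start regions of the 4 expressed genes are shown because these genes followed different patterns over the same libraries. Each line gives the 250 bases before the start site, 5′ to 3′ on the strand of the gene, from RefSeq on GRCm38.p6, the assembly that mm10 names; where several start sites are listed, the outermost was taken. Capitals mark GGGCGG, the core of a GC box, or TATAAA, each on either strand. The windows are chr4:41098184-41098433 for Aqp3, chr9:71163290-71163539 for Aqp9, chr9:96364432-96364681 for Atp1b3 and chr1:164458356-164458605 for Atp1b1, all on the minus strand.
Aqp3: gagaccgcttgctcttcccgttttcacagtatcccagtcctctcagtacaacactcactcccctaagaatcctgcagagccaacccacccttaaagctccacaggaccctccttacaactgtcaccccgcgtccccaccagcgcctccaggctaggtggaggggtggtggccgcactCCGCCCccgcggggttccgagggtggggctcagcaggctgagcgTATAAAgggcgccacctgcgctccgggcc
Aqp9: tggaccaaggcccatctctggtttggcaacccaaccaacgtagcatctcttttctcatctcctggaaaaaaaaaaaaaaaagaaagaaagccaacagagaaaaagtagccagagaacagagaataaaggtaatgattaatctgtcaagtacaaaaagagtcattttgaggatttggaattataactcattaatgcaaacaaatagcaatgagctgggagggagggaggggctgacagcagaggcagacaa
Atp1b3: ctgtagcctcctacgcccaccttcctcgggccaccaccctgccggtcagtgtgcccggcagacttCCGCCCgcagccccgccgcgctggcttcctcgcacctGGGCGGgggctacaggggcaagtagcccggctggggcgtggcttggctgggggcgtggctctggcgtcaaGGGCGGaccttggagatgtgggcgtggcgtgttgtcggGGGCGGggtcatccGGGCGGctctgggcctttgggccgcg
Atp1b1: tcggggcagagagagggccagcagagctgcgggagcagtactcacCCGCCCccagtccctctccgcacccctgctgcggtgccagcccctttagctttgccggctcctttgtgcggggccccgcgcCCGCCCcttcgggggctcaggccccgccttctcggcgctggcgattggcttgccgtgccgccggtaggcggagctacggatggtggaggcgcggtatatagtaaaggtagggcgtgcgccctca

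GC content was 64.0% for Aqp3, 40.4% for Aqp9, 73.6% for Atp1b3 and 70.4% for Atp1b1, beside a median of 52.4% over 32851 such windows. The letters GGGCGG, read on both strands, occurred 1 time for Aqp3, 0 times for Aqp9, 5 times for Atp1b3 and 2 times for Atp1b1, and 32.7% of all windows hold them. TATAAA, likewise on both strands, occurred 1 time, for Aqp3, with its first base 29 bases before the start site, and 12.4% of all windows hold it. The matches shown do not overlap one another. GCCNNNGGC, a form of the site bound by Tfap2 factors, and GGAATG, a form of the site bound by Tead factors, were searched on both strands as well and were not in these 4 windows; they occur in 13.7% and 12.6% of all windows. Atp1b3 and Aqp9 each have 2 listed start sites, and which of them is used in morulae was not tested. The Aqp9 window lies inside the gene as GENCODE M21 places it, at chr9:71110659-71168682. Whether base composition had a part in the levels was not tested. RefSeq start windows were matched for 6 of the 7 genes, all but Atp12a.

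The sodium pump beta subunits were dominated by Atp1b3. It was at 180.4 and 246.3 CPM in siPwp1 replicates 1 and 2, against 154.1 and 239.7 CPM in siControl replicates 1 and 2. Replicate 2 was the higher library in each group, by 1.36-fold in siPwp1 and 1.56-fold in siControl, and the groups overlapped. The log2 fold change was 0.12 (SE 0.31, 95% interval -0.62 to 0.85, edgeR adjusted p = 0.9998). It was -0.12 or -0.17 when siPwp1 replicate 2 or siControl replicate 1 was left out, and 0.32 or 0.47 when siPwp1 replicate 1 or siControl replicate 2 was. Atp1b3 spans chr9:96332655-96364442 (minus strand, GENCODE M21 on GRCm38) and overlaps no other annotated exon.

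Atp1b1 encodes the beta subunit best known from the trophectoderm, where it is needed for cavitation in the mouse. It was at 31.4 and 36.3 CPM in siPwp1 replicates 1 and 2, against 62.2 and 18.1 CPM in siControl replicates 1 and 2. Both siPwp1 libraries lay between the siControl libraries, whose own levels differed 3.42-fold. The log2 fold change was -0.24 (SE 0.545, 95% interval -1.54 to 1.05, edgeR adjusted p = 0.9998). Leaving out siControl replicate 1 gave 0.90 and leaving out siControl replicate 2 gave -0.88, so its direction rested on which siControl library was kept. Atp1b1 held 10.4% and 8.98% of the beta subunit TPM in siPwp1, against 21.4% and 4.82% in siControl. The TPM ratio of Atp1b3 to Atp1b1 was 8.53 and 10.1 in siPwp1, within the siControl values of 3.67 and 19.6.

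The Atp1b1 counts are uncertain for a further reason. The gene spans chr1:164437109-164458355 (minus strand) and shares 575 exon bases with Nme7, a gene on the other strand. The expected counts of each were not whole numbers, while the sum of the pair was whole in all 4 libraries, so the authors' counting divided shared reads between them. Atp1b1 took 57.7% and 70.8% of the pair in siPwp1, against 72.2% and 55.2% in siControl. Nme7 itself was at 23.0 and 15.03 CPM in siPwp1, against 24.0 and 14.7 CPM in siControl. The summed pair was at 54.4 and 51.4 CPM in siPwp1, against 86.1 and 32.9 CPM in siControl. The siPwp1 libraries again lay between the siControl libraries, and the log2 fold change of the sum was -0.17 (SE 0.449, edgeR adjusted p = 0.9997), in a fit added after seeing the data.

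Atp12a encodes the alpha subunit of the non-gastric proton-potassium pump. It was at 1.07 and 0.996 CPM in siPwp1 replicates 1 and 2, against 6.21 and 1.02 CPM in siControl replicates 1 and 2, from 54, 30, 179 and 45 reads in the same order. siControl replicate 1 stood alone, and the other 3 libraries were nearly level. The log2 fold change of -1.80 (SE 0.918, 95% interval -3.98 to 0.38, edgeR adjusted p = 0.9998) became 0.01 without siControl replicate 1 and -2.59 without siControl replicate 2. Atp12a spans chr14:56365068-56388550 (plus strand), where Gm10873 overlaps an exon on the other strand.

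Slc9a3, an exchanger of sodium for protons known from the apical face of transporting epithelia, had 0 reads in all 4 libraries. Its level was therefore under the floor of 0.0594 to 0.104 CPM that 3 counts allow. The transcript listed for it is 2490 bases long, against 5118 bases for the longest Slc9a3 transcript in GENCODE M21, so reads from the rest of the gene may not have been counted. Across the annotation, 5786 genes had 0 reads in all libraries.

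Between siPwp1 and siControl, 5 of the 7 genes passed the filter on low counts and were tested, and edgeR called 0 of them higher and 0 lower in siPwp1 at an adjusted p of 0.05. Over the 13585 genes tested it called 0.0% higher and 0.0% lower. At an unadjusted p under 0.05 there was 1 of the 5, Aqp3, and 362 of all genes. DESeq2 called 0 of the 5 as well, and 42 higher and 2 lower over all genes. Of the 5, 0 had groups that did not overlap with siPwp1 higher, where 14.7% of all genes did, and 1 had groups that did not overlap with siPwp1 lower, where 14.1% did. That share is close to the background, and the median log2 fold change of the 5 was -0.24, beside -0.00104 over all genes. The intervals of Atp1b1, Atp12a, Aqp3 and Aqp9 hold a log2 fold change of -1, and that of Atp1b1 holds 1 as well, so with 2 libraries a group they leave room for changes of that size.

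**Figure D3:**
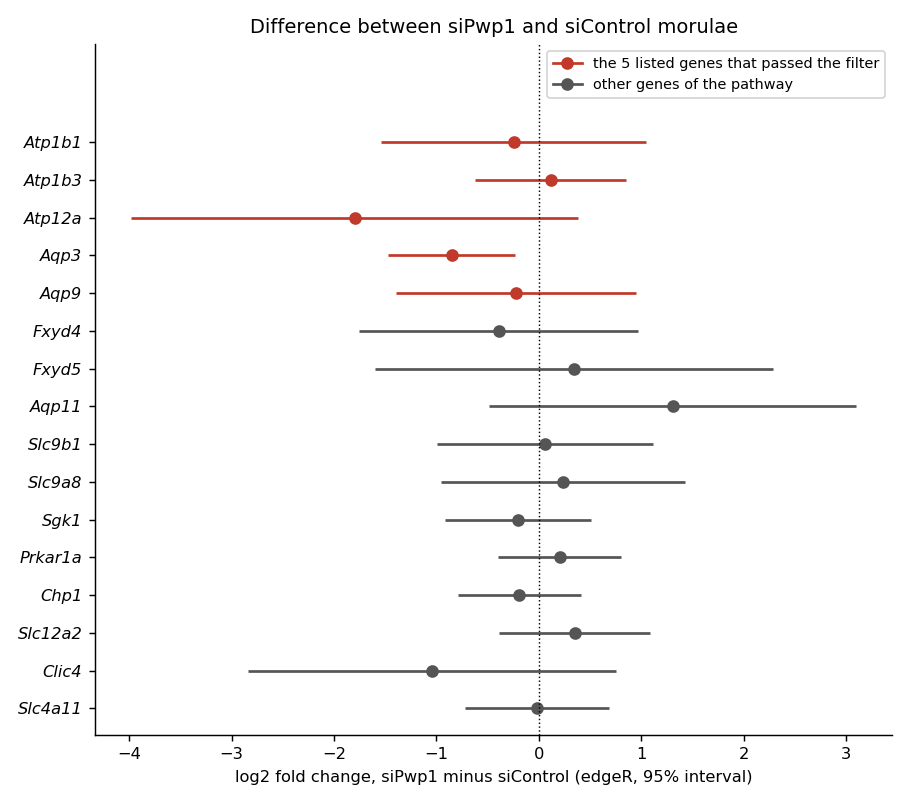
Log2 fold change, siPwp1 minus siControl (horizontal axis), with its 95% interval from edgeR; red, the 5 genes of the set that passed the filter; grey, other pump, channel and exchanger genes chosen by level. The interval of Aqp3, -1.47 to -0.23, is the one shown that does not reach 0, before any adjustment for the number of genes tested. Slc9a3r2 (0.0928 to 1.79) and Slc4a10 (2.83 to 6.55), which are not shown, also have intervals that do not reach 0.

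Aqp9 and Atp1b3 went with the replicate number more than with the group, and were higher in replicate 2 of both groups. The log2 difference of replicate 2 minus replicate 1 was 1.31 in siPwp1 and 0.96 in siControl for Aqp9. For Atp1b3 it was 0.45 and 0.64. For Atp1b1 it was 0.21 in siPwp1 and -1.77 in siControl, and for Atp12a -0.10 and -2.54. Aqp3 differed little, by -0.04 in siPwp1 and -0.29 in siControl. The labels do not say what a replicate number marks, and these differences have 1 library on each side and no test.

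Of the 13 trophectoderm genes tested, 7 were lower in replicate 2 of both groups, 2 were higher in replicate 2 of both, and 4 had opposite signs in the groups. The same count was not made over all genes, so it does not set trophectoderm genes apart. The keratin gene Krt8 was at 116.4 and 21.3 CPM in siPwp1 replicates 1 and 2, against 192.7 and 15.6 CPM in siControl replicates 1 and 2. The regulator Gata3 was at 48.1 and 16.97 CPM in siPwp1, against 126.3 and 22.7 CPM in siControl, and Cdx2 at 5.76 and 0.897 CPM in siPwp1, against 15.4 and 2.14 CPM in siControl. These 3 were higher in replicate 1 of each group and highest in siControl replicate 1, where Atp1b1 and Atp12a were highest too. A peak in that library was not particular to trophectoderm genes, but its size differed. Nanog, Pou5f1 and the sum of the 9 inner cell genes were also highest there, at 422.4, 79.2 and 1034 CPM. The siControl ratio of replicate 1 to replicate 2 was 1.45 for Nanog and 1.37 for Pou5f1. It was 12.4 for Krt8, 7.2 for Cdx2 and 5.6 for Gata3. Sox2, Tfcp2l1 and Klf4 peaked there too, with ratios of 39.8, 1.79 and 1.31. Klf5, Tdgf1, Fgf4 and Utf1 did not. Tdgf1 and Fgf4 were instead 2.54-fold and 2.21-fold higher in siControl replicate 2. Within siPwp1, Atp1b1 was not higher in replicate 1, at 31.4 CPM against 36.3 CPM in replicate 2. Tead4, a regulator that acts ahead of Cdx2, was higher in replicate 2 of each group. It was at 33.0 and 36.9 CPM in siPwp1 and 34.6 and 49.1 CPM in siControl. Tfap2c, a factor for trophectoderm genes, was nearly level, at 76.3 and 90.7 CPM in siPwp1 and 82.3 and 81.4 CPM in siControl. The part of trophectoderm content or of developmental timing in the levels of the pump genes was not tested, and in these pools fewer outer cells and less RNA per outer cell cannot be told apart.

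**Figure D4:**
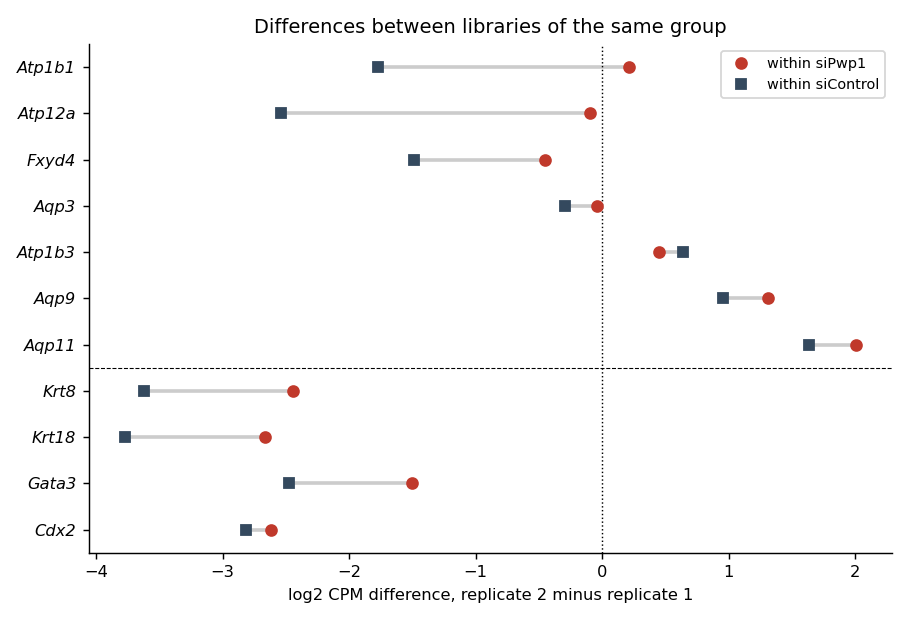
Log2 CPM difference of replicate 2 minus replicate 1 (horizontal axis), within siPwp1 (red circles) and within siControl (dark blue squares), for pump and channel genes and, under the dashed line, for trophectoderm genes. Aqp9, Atp1b3 and Aqp11 lie to the right of 0 in both groups, Krt8, Krt18, Gata3 and Cdx2 to the left in both, and Atp1b1 and Atp12a lie far to the left in siControl alone.

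The other genes of the pathway were read from lists of 71 genes in all: sodium pump subunits and regulators, gastric proton pump subunits, aquaporins, sodium-proton exchangers, their partners, and other ion transport genes. Of these, 41 passed the filter, and edgeR called 0 higher and 0 lower, with 0.0% called in each direction over all genes. At an unadjusted p under 0.05 with edgeR there were 2, both higher in siPwp1. Over all 13585 genes tested there were 250 higher and 112 lower, so higher was the more frequent direction there too. The groups did not overlap for 7 higher and 6 lower, beside 14.7% and 14.1% of all genes, and the median log2 fold change was -0.02. By list, 6 of 13 sodium pump genes passed the filter (median -0.33), 1 of 2 gastric pump genes (1.60), 2 of 9 aquaporins (median 1.45), 6 of 11 exchangers (median 0.15), 9 of 10 partners (median -0.01) and 17 of 26 other transport genes (median -0.17).

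The most abundant member of the FXYD family, small proteins that tune the pump, was Fxyd4, at 25.6 and 19.6 TPM in siPwp1 and 40.97 and 15.9 TPM in siControl. Fxyd4 was, like Atp1b1, highest in siControl replicate 1. Its log2 fold change of -0.39 (95% interval -1.76 to 0.97, edgeR adjusted p = 0.9998) turned to 0.54 without that library. Fxyd5, another member of that family, was low, at 2.27 and 2.12 TPM in siPwp1, against 2.41 and 0.95 TPM in siControl. The gastric pump genes were lower still, with Atp4a at 0 to 0.43 TPM and Atp4b at 0 in all but siControl replicate 1, where it had 0.58 TPM.

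Aqp11 was at 14.05 and 56.6 CPM in siPwp1 replicates 1 and 2, against 6.91 and 21.5 CPM in siControl replicates 1 and 2. It was higher in replicate 2 of both groups, and the groups overlapped (log2 fold change 1.31, 95% interval -0.48 to 3.10, edgeR adjusted p = 0.9998). The log2 fold change was 1.99 without siPwp1 replicate 1 and -0.01 without siPwp1 replicate 2. The next aquaporins by level, Aqp7 and Aqp1, were at 0.51 TPM or less in every library.

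Among the sodium-proton exchangers, with Slc9a3 at 0, Slc9b1 had the most TPM, at 11.8 and 14.8 TPM in siPwp1 and 7.35 and 18.2 TPM in siControl. Slc9a8, an exchanger of the Golgi, was at 4.81 and 9.50 CPM in siPwp1, against 4.997 and 7.12 CPM in siControl. The scaffold gene Slc9a3r2, whose protein binds Slc9a3, was at 17.6 and 19.96 CPM in siPwp1, above 8.88 and 10.7 CPM in siControl (log2 fold change 0.94, SE 0.356, unadjusted p = 0.0343, edgeR adjusted p = 0.9998). It was chosen after its values were seen.

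Of the remaining transport genes, the most abundant were Slc12a2, Clic4 and Slc4a11. Slc12a2, which brings in sodium, potassium and chloride together, was at 275.3 and 354.4 CPM in siPwp1, against 187.9 and 306.2 CPM in siControl. Clic4, a chloride intracellular channel family member, was at 136.1 and 40.2 CPM in siPwp1, against 293.6 and 69.9 CPM in siControl, so that replicate 1 was the higher library in each group. Slc4a11, a transporter of the bicarbonate family, differed little, at 31.9 and 31.8 CPM in siPwp1 and 29.1 and 35.4 CPM in siControl. The adjusted p of these 3 genes was 0.9998 with edgeR. The log2 fold change of Clic4 was -2.18 without siPwp1 replicate 1 and 0.33 without siControl replicate 1. The bicarbonate transporter gene Slc4a10, chosen after its values were seen, had the smallest p of the pathway lists, at 18.2 and 34.5 CPM in siPwp1 against 1.70 and 0.387 CPM in siControl (edgeR adjusted p = 0.689). Its log2 fold change was 4.69 with all 4 libraries and 3.95 to 6.08 when any 1 library was left out. Its groups did not overlap, so leaving out a library could not turn the direction. DESeq2 called Slc4a10 (adjusted p = 4.17e-09).

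The abundant partner genes were 3: Sgk1, a kinase that acts on sodium transport, Prkar1a, a regulatory subunit of protein kinase A, and Chp1, a cofactor of Slc9 exchangers. Sgk1 was at 153.7 and 246.5 CPM in siPwp1, against 209.3 and 250.7 CPM in siControl. Prkar1a was at 119.6 and 129.1 CPM in siPwp1, against 96.5 and 119.3 CPM in siControl. Chp1 was at 60.4 and 57.1 CPM in siPwp1, against 66.7 and 67.5 CPM in siControl. These 3 had an adjusted p of 0.9998, and the interval of the log2 fold change was -0.79 to 0.41 for Chp1.

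The genes whose levels ran most nearly parallel to each pump or channel gene over the 4 libraries were found by the root mean square difference of centred log2 CPM among 7832 other genes (7833 for Atp12a) of at least 5 CPM. For Aqp3 they were Mcm4, at 0.0489, and Slc37a3, at 0.0594, and 165 genes (2.11%) lay within 0.2 of Aqp3. For Aqp9 they were Zfp943, at 0.0378, and Wnk3, at 0.0752, with 62 genes within 0.2. For Atp1b1 they were Smoc1, at 0.0228, and Rpgrip1, at 0.112, with 16 genes within 0.2. For Atp1b3 they were Coq5, at 0.016, and Actl6a, at 0.0185, with 1432 genes (18.3%) within 0.2. For Atp12a they were Fam129a, at 0.229, and the desmosomal cadherin gene Dsg2, at 0.248, with 0 genes within 0.2. Zfp943, Wnk3, Rpgrip1, Actl6a and Dsg2 overlap exons of a gene on the other strand in GENCODE M21. Such overlap alone does not show that reads were divided, which was examined only for Atp1b1 and Nme7. Among the pump and channel genes themselves the closest pair was Aqp9 and Atp1b3, at 0.386. With 4 libraries, which all these genes share together with their depths, such likeness is a description and carries no test.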

How the data were processed

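Messenger RNA of mouse morula pools was sequenced after SMART-Seq v4 PLUS amplification of polyadenylated RNA, per the labels. The deposited files give RSEM expected counts per gene, not normalized, and TPM and FPKM that the authors scaled per library, per the file headers; FPKM were not used. STAR 2.7.10, RSEM 1.3.3 and mm10 are named in the submitters' processing notes; for trimming, annotation release and strandedness, the tool or setting is not given in the sources.

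After rounding, expected counts went into edgeR 4.0.16 (R 4.3.3), whose quasi-likelihood test compared the groups without covariates, using filterByExpr (minimum count 10), TMM scaling and two-sided p-values adjusted by Benjamini-Hochberg over all 13585 genes that passed, at a threshold of 0.05. Each SE was the size of the log2 fold change divided by the root of its F statistic, and the 95% interval uses the total degrees of freedom of the fit. The test was also run on simulated counts of this design, drawn without any difference by replicate number, and the outcome is not reported here. With 2 libraries a side, exact permutation gives no p below 0.333.

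Genes were named by rule: the 7 genes, Pwp1, the 3 of highest mean TPM in each list, stage markers, and the 2 most parallel genes for each tested gene, where names that are only identifiers were left out; some genes that the rule names are not reported here. Other genes named (Slc9a3r2, Slc4a10, Nme7, Krt18, Tead4, Tfap2c, the inner cell genes beside Nanog and Pou5f1, and the leading cumulus and blood markers) were chosen after their values were seen. Members and lists were chosen with earlier results of these data known. Alternatives were no filter, a stricter filter (5 CPM in 2 or more libraries), scaling by DESeq2 size factors, and DESeq2 1.42.0. With limma 3.58.1, log2(TPM + 1) was fitted with and without a filter of mean TPM 1, and log2(TPM + 0.1) with that filter only. Further alternatives were a block for replicate number, leaving out each library, and the sum of Atp1b1 and Nme7, added after seeing the data. Positions are from GENCODE M21 on GRCm38.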

Additional observations from a re-analysis of the deposited data

How the results depend on the processing

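With 2 libraries a group, 0 of the pump and channel genes were called in any of the 58 alternative values computed for the 5 tested genes, and the lowest adjusted p was 0.108, for Aqp3 with the replicate number as a block. Aqp3 kept its direction in all 12 of its alternatives, though leaving out a library could not turn it, since its groups did not overlap. Fits that leave out a library see no spread within the group of the lone sample. The prior degrees of freedom weigh the spread shared by all genes against that of each gene. They were infinite without siPwp1 replicate 1 or 2, 23.66 without siControl replicate 2 and 9.798 without siControl replicate 1. The main fit had 4.839. An infinite value uses the shared spread alone. Calls from fits that leave out a library are thus weaker evidence than calls from all 4 libraries.

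Genes called higher and lower in siPwp1 over all genes numbered 99 and 7 with no filter, 71 and 9 with the replicate number as a block, and 42 and 2 with DESeq2; leaving out 1 library gave 5 to 130 higher and 1 to 18 lower. Of the other pump, channel and exchanger genes, 1 was called higher, Slc4a10, with no filter, with the block (edgeR adjusted p = 0.00663) and with DESeq2, and 1 lower, Clic4, with the block (log2 fold change -0.96, edgeR adjusted p = 0.0382); leaving out 1 library gave 1 to 2 higher and 0 to 1 lower. Non-overlapping genes numbered 930 higher among the 8446 genes left by the stricter filter, beside 1992 among 13585 in the main set. Leaving out 1 library gave 3925 to 4899 higher and 3720 to 4969 lower. Among the 5 tested genes it gave 0 to 1 higher and 2 to 3 lower. A single library on 1 side overlaps less. Pwp1 passed the threshold with no filter (log2 fold change -2.98), with the block (-2.92), with DESeq2 (-2.96) and without any 1 library (-3.30 to -2.54).

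Several directions turned. Atp1b1 was at 0.00258 with the block, 0.00851 with limma on log2(TPM + 1), with or without the filter, and 0.0225 with a pseudocount of 0.1. Slc4a11 was at 0.0206 with the stricter filter, 0.0017 with limma on log2(TPM + 1), with or without the filter, and 0.0028 with a pseudocount of 0.1. Leaving out 1 library gave log2 fold changes of -0.88 to 0.90 for Atp1b1, -0.17 to 0.47 for Atp1b3, -2.59 to 0.0129 for Atp12a, -1.01 to 0.33 for Aqp9, -0.96 to 0.54 for Fxyd4, -0.21 to 1.24 for Fxyd5, -0.0123 to 2.35 for Aqp11, -0.42 to 0.78 for Slc9b1, -0.33 to 0.65 for Slc9a8, -0.58 to 0.10 for Sgk1, -2.18 to 0.33 for Clic4 and -0.15 to 0.13 for Slc4a11; the cause was not tested. Across 13585 genes, which are not independent, the replicate 2 minus replicate 1 differences of the groups correlated at 0.317 over 2 pairs; the labels do not say that a number marks a shared batch, so the samples share only a number.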
